A study of Caenorhabditis elegans with 2 samples.

Results

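The vacuolar proton ATPase (V-ATPase) genes vha-1, vha-8, vha-12, vha-13, vha-15 and vha-20 of Caenorhabditis elegans were examined for peaks of the tagged corepressor CTBP-1. They were chosen by name because each carried a peak summit in its promoter window, so the presence of a peak at these 6 genes is the criterion and not a finding. They were 6 of 22 V-ATPase genes listed and of 19973 protein-coding genes on nuclear chromosomes. A promoter window ran from 1000 bp upstream to 250 bp downstream of the annotated 5′ end of a protein-coding transcript.

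The study was a chromatin immunoprecipitation sequencing (ChIP-seq) experiment on whole L4 larvae, collected at 48 hours and synchronised as L1 animals starved after bleaching. All animals were of strain RW12203, which carries st12203[ctbp-1::TY1::EGFP::3xFLAG], a CRISPR insertion at ctbp-1 on X, and chromatin was precipitated with anti-GFP. The single group held 2 biological replicates, with no untagged or otherwise treated group analysed, so conditions were not compared and no test was run. Since whole animals were used, the tissue that a peak comes from is unknown. No control coverage and no expression values were used, so recovery of a site through CTBP-1 and recovery of open or highly transcribed chromatin cannot be told apart.

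The V-ATPase is a rotary pump that uses ATP to move protons across membranes and so acidifies lysosomes, endosomes and secretory vesicles. Its V1 sector lies in the cytosol and hydrolyses ATP, and its V0 sector lies in the membrane, where a ring of proteolipid subunits turns against the a subunit that holds the proton channels. In worms the pump is known for its work in the excretory canal, the intestine and the hypodermis, and many of its genes are single copies while others have tissue-specific paralogues. CTBP-1 is the worm member of the C-terminal binding proteins, corepressors that are commonly brought to DNA by sequence-specific factors. Many worm transcripts are trans-spliced, so an annotated 5′ end can mark a splice acceptor that lies downstream of the true start of transcription.

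The reference sequence under 5 of the summits is shown because the members differ in what it holds, the GAGA repeat GAGAGA in some and no match to it in others. Each stretch spans 75 bp on either side of the summit and is 151 bases long, from the RefSeq genome of build WBcel235 (ce11). Capitals mark GAGAGA or its reverse complement TCTCTC. The vha-8 window is chrIV:6790565-6790715, the vha-15 window chrX:2237537-2237687, the vha-1 window chrIII:9780746-9780896 and the vha-12 window chrX:4190682-4190832, all on the plus strand, which is the strand of these 4 genes. The vha-20 window, chrX:14164346-14164496, is on the minus strand, also the strand of its gene, and lies in coding sequence.
vha-8: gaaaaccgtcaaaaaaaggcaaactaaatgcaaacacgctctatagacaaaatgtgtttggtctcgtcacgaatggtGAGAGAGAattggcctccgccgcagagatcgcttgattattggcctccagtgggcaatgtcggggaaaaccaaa
vha-15: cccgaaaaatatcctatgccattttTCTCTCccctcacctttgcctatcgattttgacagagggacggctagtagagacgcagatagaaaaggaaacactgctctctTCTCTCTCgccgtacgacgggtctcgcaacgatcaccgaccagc
vha-1: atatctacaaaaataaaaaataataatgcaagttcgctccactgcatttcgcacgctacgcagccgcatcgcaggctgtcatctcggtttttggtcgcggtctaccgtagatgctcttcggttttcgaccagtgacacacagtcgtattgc
vha-12: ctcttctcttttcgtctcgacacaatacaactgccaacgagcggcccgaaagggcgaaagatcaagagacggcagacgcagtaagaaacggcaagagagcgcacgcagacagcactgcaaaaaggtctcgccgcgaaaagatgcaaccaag
vha-20: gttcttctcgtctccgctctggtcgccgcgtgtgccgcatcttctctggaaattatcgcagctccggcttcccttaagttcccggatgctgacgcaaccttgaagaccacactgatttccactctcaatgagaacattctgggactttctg

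The vha-8 window held overlapping copies of the repeat, which began 2 and 4 bp from the summit. The vha-15 window held 3 copies, of which one lay to the left of the summit and a pair overlapped to its right. At vha-13, whose summit lies in an untranslated exon of the gene cept-2 and whose window is not printed, there were 2 copies. They lay 58 bp to the left and 64 bp to the right of the summit. The windows of vha-1, vha-12 and vha-20 held none. However, vha-12 held agagag, an alternating run of the same length that does not match GAGAGA. Across all 2911 nuclear summits, 31.3% had GAGAGA on either strand within the same distance, as had 30.2% of the 1303 summits in promoter windows and 9.02% of windows of the same length centred 300 bp upstream of each gene. GAGAGA was thus present at 3 of 6 members, and the windows of the other members had no match to it.

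Of the other motifs searched on both strands, none occurred in any of the 6 windows. One was CACGTG, the E-box of factors such as HLH-30. Another was TGATAA, which GATA factors bind. The last was TTTCAG, found at trans-splice acceptors. CACGTG was in 4.60% of all summits and 2.40% of upstream windows, TGATAA in 6.66% and 15.3%, and TTTCAG in 11.9% and 26.4%. With no match, none overlapped the GAGA repeat. The absence of a match says only that these letters were not in these windows. The windows were rich in G and C, with 46.4% at vha-8, 47.0% at vha-1, 51.0% at vha-15, 53.0% at vha-13 and vha-20, and 53.6% at vha-12. The median was 46.4% over all summits and 33.8% over the upstream windows, so every member lay at or above the median of summits.

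**Figure D1:**
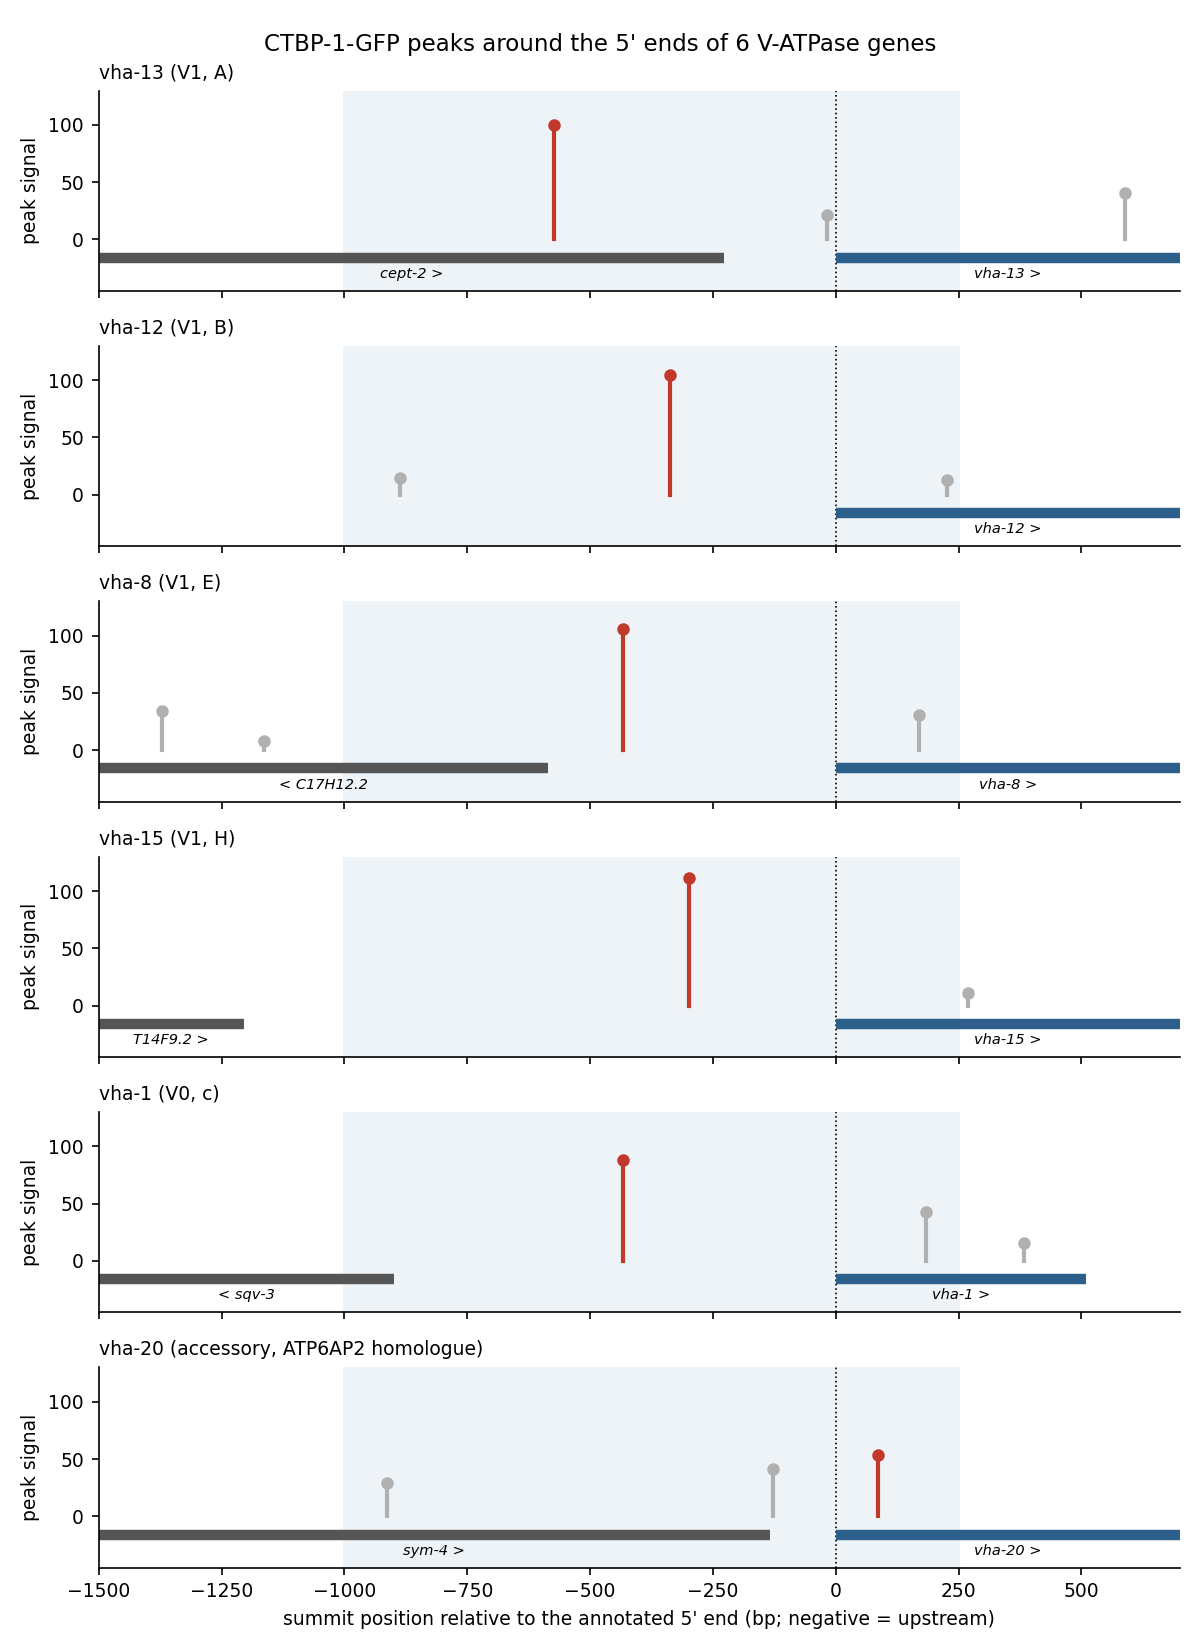
Peaks around the annotated 5′ ends of the 6 genes, with the summit position in bp on the x axis (negative is upstream) and the authors' peak signal as stem height. Red stems are thresholded peaks, grey stems are ranked peaks outside the threshold, the shaded band is the promoter window and bars are genes with arrows for direction; 5 red stems stand upstream of the gene and that of vha-20 stands inside it.

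The series-level thresholded list held 2911 nuclear peaks with a median signal of 85.8, the signal being the authors' own value for a peak, on an unstated scale. The 1303 peaks in promoter windows had a median signal of 87.6, with quartiles of 69.1 and 126.9. The 6 members ranged from 53.7 to 111.3, a ratio of 2.07, with a median of 102.4. In that list 7.12% of protein-coding genes had a promoter summit. All 6 members had one by the way they were chosen, and nothing is read from that count.

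The catalytic head of V1 is a ring of A and B subunits, encoded by vha-13 and vha-12. The vha-13 peak (summit V 14351136) had a signal of 99.97 and ranked 1093 of 2911. It lay 573 bp upstream of vha-13 (V 14351709 to 14354422, plus strand), the farthest of the members. The summit fell inside an untranslated exon of cept-2, a gene on the same strand that ends 227 bp before vha-13 begins, so it marks transcribed sequence of one gene and the upstream region of the next. The vha-12 peak (X 4190757) had a signal of 104.8 and ranked 1001. It lay 337 bp upstream of vha-12 (X 4191094 to 4193144, plus strand), between protein-coding genes, and the next gene upstream, mrp-6, was 4338 bp away.

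The remaining V1 members encode parts of the stalk and a regulator. The gene vha-8 (IV 6791074 to 6792455, plus strand) encodes subunit E of the peripheral stalk, which holds the head still while the rotor turns. Its peak (IV 6790640) had a signal of 105.9, ranked 975 and lay 434 bp upstream. C17H12.2, which is transcribed in the opposite direction and begins 586 bp away, had the nearer 5′ end, at 152 bp from the summit. That was the one member summit with a nearer protein-coding 5′ end. The gene vha-15 (X 2237911 to 2240255, plus strand) encodes subunit H, which regulates ATP hydrolysis in yeast. Its peak (X 2237612) had a signal of 111.3, the highest of the 6, with rank 894, and lay 299 bp upstream in a gap of 1205 bp after T14F9.2.

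The membrane sector was represented by vha-1 (III 9781254 to 9781763, plus strand), which encodes a proteolipid c subunit of the rotor ring. Its peak (III 9780821) had a signal of 87.8, ranked 1382 and lay 433 bp upstream, close to the middle of a gap of 900 bp to the divergent gene sqv-3, whose 5′ end was 467 bp from the same summit. The peak therefore counted for both genes. The difference between the distances, 433 and 467 bp, is smaller than the 68 bp by which the replicate 2 summit was displaced from that of the series-level peak. Of all promoter peaks, 78.1% counted for 1 gene, as did those of vha-12, vha-13, vha-15 and vha-20.

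The accessory gene vha-20 (X 14163099 to 14164506, minus strand) encodes the homologue of human ATP6AP2, an accessory protein of the pump also known as the prorenin receptor. Its peak (X 14164421) stood apart from the others. The signal was 53.7, with rank 2657, below the first quartile of the list at 67.6, and the summit lay 85 bp inside the gene, in a coding exon. Another ranked peak, with a signal of 41.7, lay 128 bp upstream of vha-20 near the end of the same-strand gene sym-4, and it missed the threshold.

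**Figure D2:**
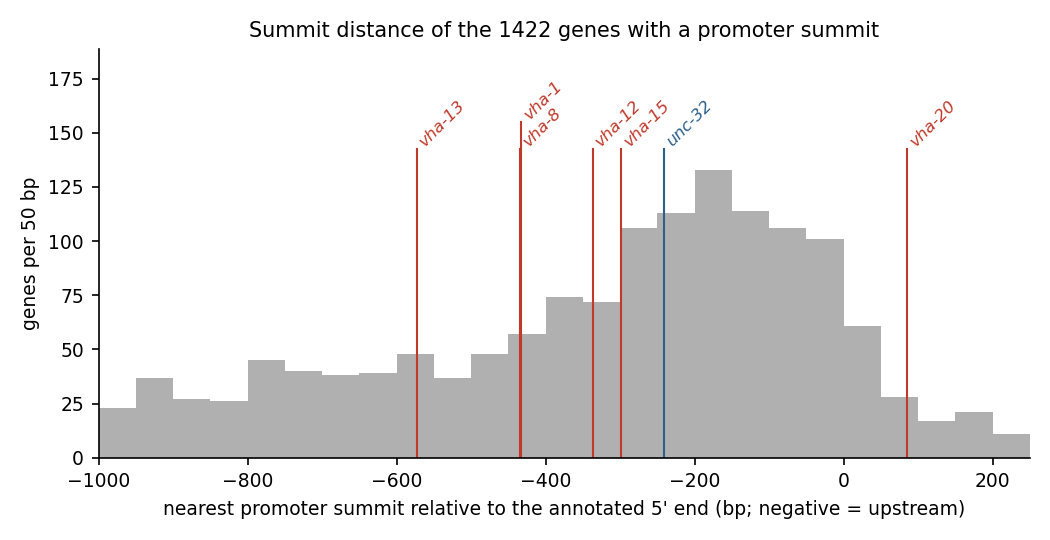
Histogram of the signed distance from the annotated 5′ end to the nearest promoter summit (x axis, bp, negative is upstream) over the 1422 genes with a promoter summit, in genes per 50 bp on the y axis. Lines mark the 6 members in red and unc-32 in blue; 5 members lie between 573 and 299 bp upstream, and vha-20 lies 85 bp downstream.

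The 5 upstream summits lay farther from the gene than the median of the list. Over the 1422 genes with a promoter summit, the median was 253 bp upstream, with quartiles of 505.75 and 108 bp upstream, and 90.3% of them had the summit upstream. Those 5 members lay from 299 to 573 bp upstream, and the median absolute distance over the 6 was 385 bp. Annotated 5′ ends at these genes lay close to the start codon. The distance was 0 bp for vha-1, 1 bp for vha-20, 2 bp for vha-12 and vha-15, 8 bp for vha-13 and 24 bp for vha-8, so the annotation holds hardly any untranslated leader against which a start of transcription could be placed. No member summit had a tRNA, snoRNA or snRNA gene within 200 bp.

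Replicate signals were read from each replicate's own ranked list, at summits within 100 bp of the series-level summit. How the lists were scaled to each other is not stated, so a difference at a member is read against that of all paired peaks. At vha-12 replicate 1 gave a signal of 56.6 and replicate 2 gave 52.8. At vha-8 it was 61.6 in replicate 1 and 58.8 in replicate 2. At vha-1 it was 52.4 in replicate 1 and 46.0 in replicate 2. For these 3 genes the replicates lay close together, with log2 differences (replicate 2 minus replicate 1) of -0.10, -0.07 and -0.19. Over 2540 paired nuclear peaks the same difference had a median of 0.05, an SD of 0.56, and 5th and 95th percentiles of -0.83 and 0.92.

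At vha-15 replicate 1 gave a signal of 44.1 and replicate 2 gave 67.0, a log2 difference of 0.60, and the replicate 1 summit lay 85 bp to the left of the series-level one. At vha-13 replicate 1 gave a signal of 68.4 and replicate 2 gave 28.2, a log2 difference of -1.28, beyond the 5th percentile of all paired peaks. The gene vha-13 thus had the highest replicate 1 signal of the members and the lowest paired replicate 2 signal. Its peak was in the thresholded list of replicate 1 but not of replicate 2. At vha-20 replicate 1 had a signal of 22.4 and replicate 2 had no ranked summit within 100 bp. The 1 ranked peak of replicate 2 that overlapped the vha-20 peak had a signal of 31.6, with its summit 218 bp away on the upstream side. That summit lay next to the separate ranked peak found 128 bp upstream of vha-20, which missed the threshold. In replicate 1, 2 ranked peaks overlapped the vha-20 peak. The overlap thus gives no replicate 2 summit at the thresholded vha-20 position. Over the 5 paired members the median log2 difference was -0.10 with an SD of 0.68, and 4 of them were higher in replicate 1.

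**Figure D3:**
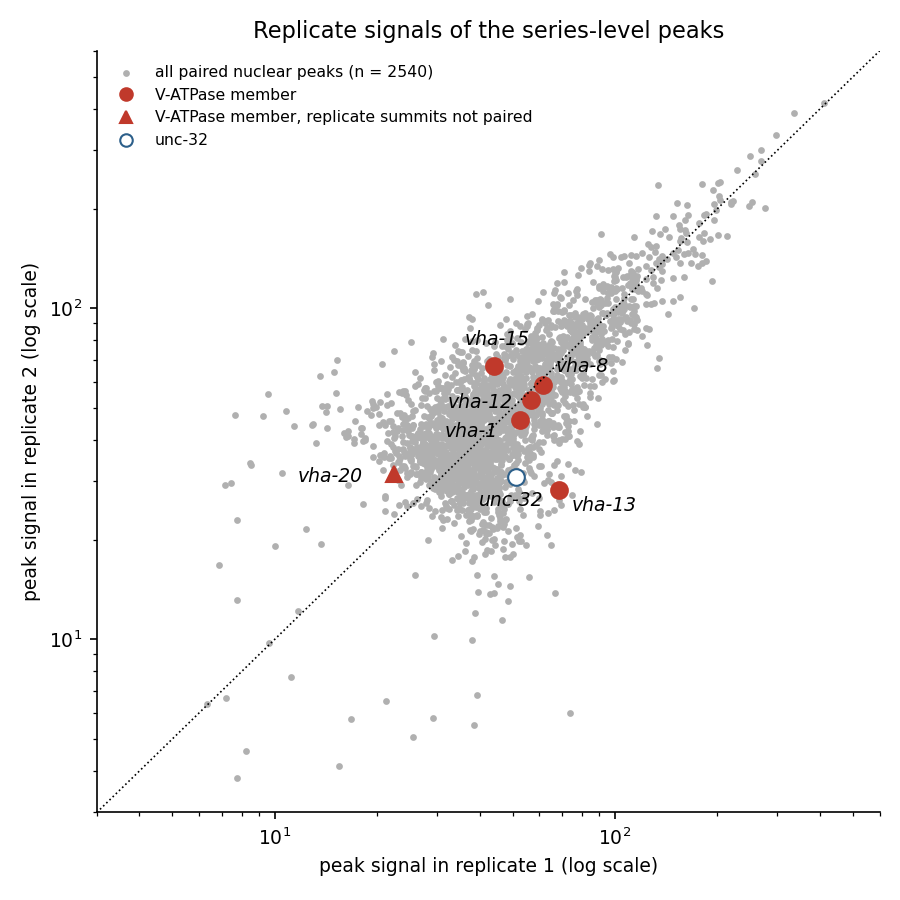
Peak signal in replicate 1 (x axis) against replicate 2 (y axis), both on log scales in the authors' units, for 2540 paired nuclear peaks in grey, the members in red and unc-32 as an open circle. The dotted line marks equal signal; vha-1, vha-8 and vha-12 lie near it, vha-13 lies far below it, and the triangle for vha-20 marks overlapping peaks whose summits are not paired.

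The thresholded lists of the single replicates were shorter. Of the members, 5 were in the list of replicate 1, where 3.78% of all genes had a promoter summit, and 4 were in that of replicate 2, where 4.52% had one. The conservative list of the series, with 6.7% of genes, held 5. Missing from replicate 2 were vha-13 and vha-20, and vha-20 was in none of these 3 lists. The threshold was a global irreproducible discovery rate (IDR, which is low where paired lists both rank a peak high) of 0.01. The vha-20 peak was just inside it, at 0.00875, and the other members lay between 0.000191 for vha-8 and 0.00133 for vha-13. A low value did not mean like signals in the 2 replicates, since vha-13 gave 68.4 in replicate 1 and 28.2 in replicate 2. Nor did like signals mean a low value. At vha-11, whose peak was in the conservative list, the value was 0.704, with 32.1 in replicate 1 and 28.6 in replicate 2. The value is therefore not read as a measure of how alike the 2 biological replicates were. Of the V-ATPase genes outside the threshold, the lowest values were those of vha-2, with an IDR of 0.0844 and a signal of 66.3, and vha-10, with 0.114 and 52.7. The vha-2 signal was higher than that of vha-20, so the threshold did not follow the signal between these genes.

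Across the whole complex, 7 of 22 V-ATPase genes (31.8%) had a thresholded promoter summit in the series-level list, beside 7.12% of all protein-coding genes. Of these 7, 6 are the members, which were chosen by this criterion, so nothing is read from the 31.8%. Among the 16 other V-ATPase genes, 1 (6.25%), unc-32, had such a summit. That share was lowered by taking out the members, which had one, so it is not read against the 7.12% either. Without replicate 1 the V-ATPase count of 7 became 4, since vha-13, vha-20 and unc-32 were lost, and without replicate 2 it was 6. By sector, the 7 genes of the series-level list were 4 of 10 V1 genes, 2 of 10 V0 genes and 1 of 2 accessory genes. Since 6 of the 7 were chosen by their summit, nothing is read from this split. It also shifted in the conservative list, which gained vha-2 and vha-11 and lost vha-20. Of the 15 genes without a thresholded summit, 13 had a ranked promoter peak that missed the threshold, and vha-5 and vha-6, which encode a subunits of the hypodermis and canal and of the intestine, had none. Ranked promoter peaks were common, at 61.8% of all genes. The strongest at those 13 genes had signals of 7.23 to 69.1 with a median of 33.3, compared with 26.0 over all genes that had a ranked promoter peak but no thresholded one.

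The V1 genes without a thresholded summit covered subunits C, D, F and G as well as the second copies of B and H. The strongest ranked promoter signal was 69.1 at vha-11 (C), 52.7 at vha-10 (G), 42.0 at vha-9 (F), 28.4 at vha-14 (D), 21.9 at spe-5 (B) and 20.9 at vha-18 (H). In V0 it was 66.3 at vha-2 (c), 45.5 at vha-16 (d), 37.7 at vha-17 (e), 26.7 at vha-3 (c), 14.3 at vha-7 (a) and 7.23 at vha-4 (the second kind of proteolipid). At vha-19, the homologue of human ATP6AP1, it was 33.3. The vha-2 and vha-11 peaks lay 105 and 113 bp inside their genes and were in the conservative list, although not in the main one. At vha-2 the replicates gave 31.6 and 29.2, and at vha-11 they gave 32.1 and 28.6.

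**Figure D4:**
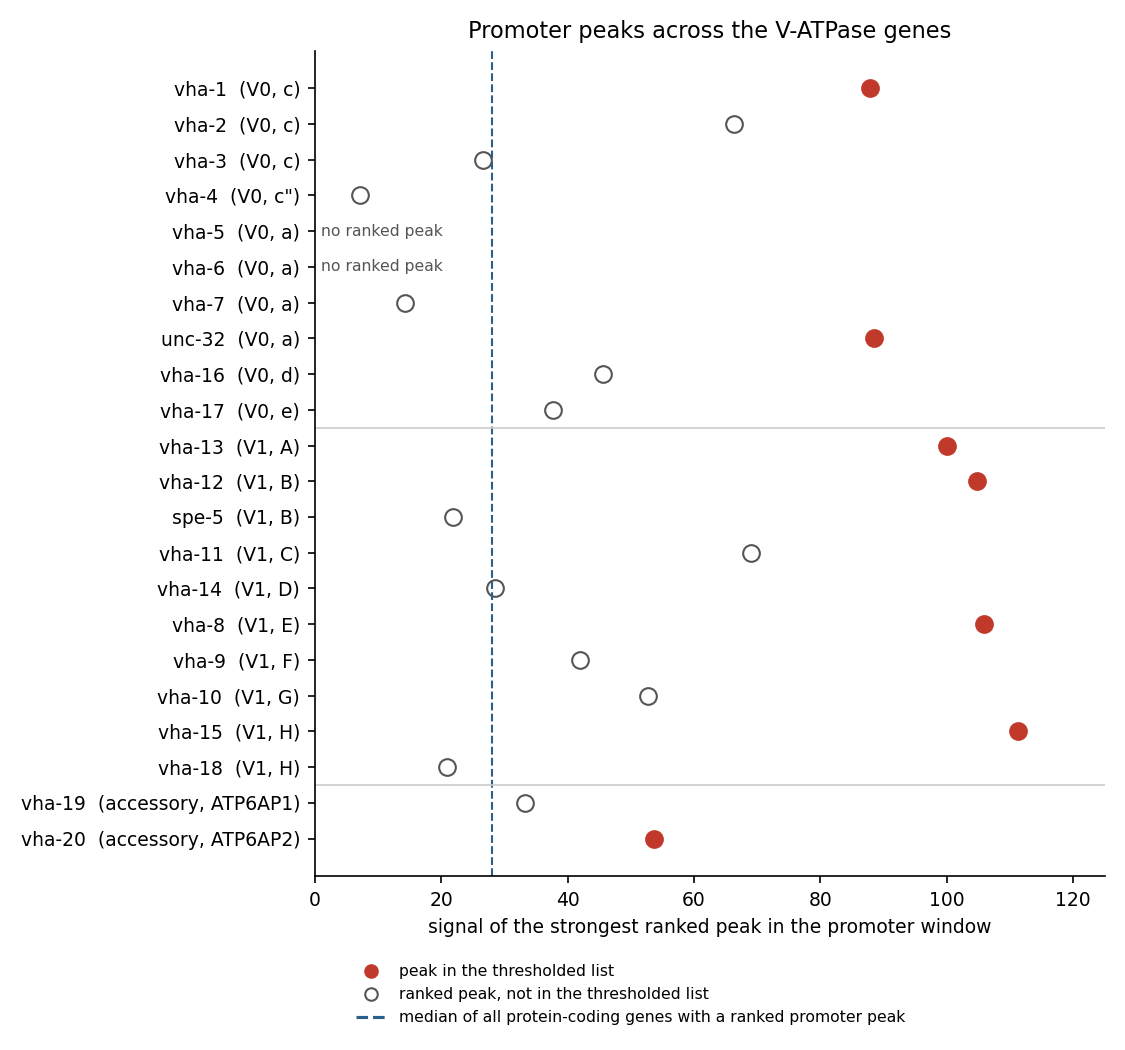
Signal of the strongest ranked peak in the promoter window (x axis, authors' units) for each of the 22 V-ATPase genes, grouped by sector with the subunit in brackets. Filled points are in the thresholded list, open points are not, and the dashed line at 28.1 is the median over all protein-coding genes with a ranked promoter peak; the open points at vha-2 and vha-11 exceed the filled point at vha-20.

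Subunits with more than 1 gene allowed members to be set beside their paralogues. For the c subunit, vha-1 had the peak, at 87.8, while vha-2 and vha-3 had ranked peaks of 66.3 and 26.7. The vha-1 protein shares 62.7% of aligned residues with each of them, and the vha-2 and vha-3 proteins are identical, with 85.1% identical coding bases and a longest identical run of 23 bases. The vha-1 and vha-2 genes lie on the same strand with 400 bases between them, and the vha-1 summit is 1343 bp upstream of vha-2, outside its window. The vha-3 and vha-11 genes also lie on one strand, 892 bases apart.

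For subunit B, vha-12 had a peak of 104.8 and spe-5, which is needed in spermatogenesis, had a ranked peak of 21.9, although their proteins are 82.7% identical. For subunit H, vha-15 had 111.3 and vha-18 had 20.9, with 43.2% identity. For the a subunit, which has 4 genes, unc-32 had a thresholded peak and vha-7 a ranked one of 14.3, and identities between the 4 proteins ran from 32.8% to 50.5%. In each of these 4 families 1 gene carried a thresholded promoter summit in the series-level list, whereas in the conservative list vha-2 had one beside vha-1. Of those 4 genes, 3 are members and were chosen by having the summit.

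The unc-32 gene (III 8905615 to 8911756, plus strand) encodes the a subunit known for synaptic vesicles and the nervous system. Its summit (III 8905374) had a signal of 88.4 and lay 241 bp upstream, with 51.2 in replicate 1 and 30.9 in replicate 2. Replicate 1 was the higher, with a log2 difference of -0.73, and the peak passed the threshold in replicate 1 but not in replicate 2, as at vha-13. The noncoding gene ZK637.19 lay within 100 bp of it. A stronger summit in the same gap, with a signal of 275.2, lay 1323 bp upstream of unc-32 and outside its window, on the side of the divergent gene lin-9.

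Several V-ATPase genes had a summit near their 3′ end, an arrangement looked for after the peaks had been seen. Within 300 bp of the annotated 3′ end there was a thresholded summit at 5 of 22 genes (22.7%), compared with 2.46% of all genes, and the count was 1 when either replicate was left out, where the share of all genes was 1.23% without replicate 1 and 1.13% without replicate 2. At vha-12 a second peak (X 4193309, signal 65.9) lay 165 bp past the end, with 39.2 in replicate 1 and 35.5 in replicate 2. At vha-13 a peak with a signal of 77.3 lay 16 bp before the end, with 31.8 and 45.6 in the replicates, and another of 51.0 lay 200 bp past it, with 25.5 and 5.06. These genes thus had summits on both flanks. The others were vha-14 (signal 90.3, at 260 bp), vha-2 (76.7, at 71 bp) and vha-9 (38.8, at 253 bp), which had no thresholded promoter summit. Of the 6 summits, 4 also lay in the promoter window of a following gene, R10E11.6 after vha-2, Y49A3A.3 after vha-13 (both summits) and clpp-1 after vha-9, so the gene they belong to cannot be told apart. Those of vha-12 and vha-14 lay in no other promoter window.

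The V-ATPase sits on the lysosome, where in mammals it takes part in recruiting the growth regulator mTORC1, so genes of both systems were listed beside it. Of 22 lysosome genes, 2 (9.09%) had a promoter summit, beside 7.12% of all genes. They were hlh-30, the homologue of the mammalian lysosomal regulator TFEB, and lmp-1, a lysosomal membrane glycoprotein. At hlh-30 the signal was 126.0, at 73 bp upstream, with 55.9 in replicate 1 and 71.6 in replicate 2. At lmp-1 it was 86.8, at 798 bp upstream, with 31.7 in replicate 1 and 54.0 in replicate 2. Of the pair, hlh-30 alone stayed in the list when replicate 2 was left out. The lysosome share was near the background and is no result about these genes.

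Of 13 mTORC1 genes, 3 (23.1%) had a promoter summit, beside the same 7.12%. At rheb-1, the GTPase that activates mTORC1, the signal was 135.9 at 330 bp upstream, with 73.8 in replicate 1 and 64.1 in replicate 2, and spk-1 had the nearer 5′ end at 248 bp. At lmtr-3, named for a subunit of the Ragulator complex that anchors mTORC1, it was 65.2 at 92 bp upstream, with 41.5 in replicate 1 and 28.3 in replicate 2. At flcn-1, the folliculin homologue, it was 63.1 at 306 bp upstream, with 41.3 in replicate 1 and 24.3 in replicate 2. All 3 were higher in replicate 1, and when it was left out the count was 1, rheb-1. The signals at lmtr-3 and flcn-1 lay below the first quartile of all nuclear peaks, 67.6. The count was 2 in the conservative list (6.7% of all genes) and 2 with the nearest 5′ end alone (5.74%). The mTORC1 list was chosen with earlier results of these data known, so nothing is read from the 23.1%.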

How the data were processed

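ChIP-seq was done on 2 biological replicates of 1 strain. The authors deposited 8 peak lists on build ce11, per the labels, with a signal value for each peak, whose scale is not stated, so that signals were ranked within a list or set beside each other between replicates without a common scale. For each peak of their ranked lists the authors deposited the −log10 of its global IDR. Not given in the sources used here are the aligner, the peak caller and the depth, so no interval is printed. Single-input values (16 columns) were left unused.

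Summits, counted from 1, were assigned to protein-coding 5′ ends of Ensembl release 115 on WBcel235 with Python 3.11.15 and numpy 2.4.6, an assignment tested on simulated data. Proteins were translated from the annotated coding sequence and aligned globally with Biopython 1.88 (BLOSUM62, gap costs 11 and 1); paralogues were compared over all aligned positions. Named genes are the 6 members, the other V-ATPase genes, genes nearer to a member summit, and up to 5 genes with a promoter summit from a lysosome and an mTORC1 list. The members and lists were chosen with earlier results of these data known. Alternatives changed the list, left out a replicate, or changed the window, the gene assignment or the matching of replicates; the distance to 3′ ends was chosen after seeing the data.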

Additional observations from a re-analysis of the deposited data

How the results depend on the processing

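Of the 6 members, 4 to 6 had a promoter summit under every alternative tried. They were chosen by that summit in overlapping data, so the count is a description and nothing is read from it. With windows of 500 bp upstream and 100 bp downstream (5.12% of all genes) vha-13 lost its summit. With the nearest 5′ end alone (5.74%) vha-8 did, and among the stronger 0.5 of peaks by signal (4.16%) vha-20 did. The V-ATPase count of 7 of 22 ranged from 4 (without replicate 1) to 6 (without replicate 2) when a replicate was left out, was 8 in the conservative list (6.7% of all genes), 6 with each summit given to the nearest 5′ end alone (5.74%), and 10 with wider windows of 2000 bp upstream and 500 bp downstream (10%). Without replicate 1, vha-13, unc-32 and vha-20 lost their summit, and without replicate 2, vha-20 did. The count of lysosome genes was 1 to 3 with a replicate left out, and 1 with narrower windows (500 bp upstream, 100 bp downstream). The count of mTORC1 genes was 1 to 3 with a replicate left out, and 1 among the stronger 0.5 of peaks by signal, where the share of all genes was 4.16%. That share was 3.78% to 4.52% with a replicate left out, where fewer peaks were listed. The median member distance of 385 bp became 433 bp in the conservative list, and 381 to 432 bp with a replicate left out, over the members still present. The count of V-ATPase genes with a summit near the 3′ end was 5 in the full list beside 2.46% of all genes, and 4 in the conservative list (2.25%). It was 1 without replicate 1 (1.23%), 1 without replicate 2 (1.13%) and 2 within 150 bp (1.14%), so the share of all genes fell as well. Depth is unknown, and the scaling between the replicate lists is not stated, which limits what the difference between 2 replicates says of a single peak. No paired analysis was possible because there was 1 group.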
